A study of Mus musculus with 5 samples.

Results

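The cytosolic ribosomal proteins were followed in hearts of db/db mice, a model of obesity and diabetes, and of wild-type (WT) mice. The genes were chosen by symbol alone: Rpl or Rps with a number and at most 1 further letter a, x, y or l, together with Rplp0, Rplp1, Rplp2 and Rpsa, and with a summed count of at least 10. The symbols of 80 genes matched, 1 of them (Rpl32l) had a summed count of 1, and 79 of the 17228 genes in the deposited table remained. Of these, 31 encode proteins of the small 40S subunit and 48 encode proteins of the large 60S subunit, including the 3 proteins of its P stalk. The rule used no measured value other than the summed count, but it was set with earlier results of these data known.

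Poly-A RNA of whole hearts taken at 6 months of age was sequenced in 5 libraries. The labels give 2 WT mice (genotype WT, non-diabetic), a female and a male, and 3 mice of genotype KsJ-Lepr db/Lepr db, 2 females and a male. The strain label is C57BL for all of them, KsJ is named for the db/db genotype alone, and the growth protocol speaks of male mice although 3 samples are labelled female. The db mutation alters splicing of the leptin receptor gene Lepr in the whole animal, so no transgene or Cre driver is involved, and a difference in background between the genotypes cannot be told apart from the mutation. No label says that each library is a separate animal, so the p-values below measure the spread between these samples.

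Ribosomal proteins and ribosomal RNA form the ribosome: the 40S subunit reads the messenger RNA and the 60S subunit joins amino acids. Their messenger RNAs begin with a tract of pyrimidines, the 5′ terminal oligopyrimidine (TOP) motif, through which the mTORC1 kinase complex and the RNA-binding protein LARP1 set how much of them is translated. Messenger RNA levels, the quantity measured here, are therefore only 1 layer at which ribosome production is set. In heart and skeletal muscle, the paralog Rpl3l is known to take the place of Rpl3 in a part of the ribosomes.

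The libraries held 8356099 to 10381326 counts and 14685 to 15132 detected genes. Of the 79 genes, 78 had at least 100 counts in every library and passed the filter on low counts, so the filter did not choose among them by group. The exception was Rpl39l, with 0 to 5 counts. Cardiomyocyte markers (10 of 10 detected) summed to 93288 to 128712 CPM (TMM-scaled counts relative to library size), with the WT female lowest and the db/db male highest, while 6 skeletal muscle markers summed to 2.45 to 17.0 CPM. Red cell markers (6 of 6) summed to 3360 CPM in the WT female and to between 6807 and 9635 CPM in the other libraries. The part of these cell type differences in the results below was not tested, and in whole tissue fewer cells of a type and less RNA per cell cannot be told apart.

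Ribosomal protein genes were among the most abundant messengers of the heart. They took 3.01% of all counts in the WT female, 3.25% in the WT male, 3.19% and 3.05% in db/db females 1 and 2, and 4.13% in the db/db male. On the length-scaled TPM values as deposited, they took 6.77%, 6.89%, 6.70%, 6.40% and 8.16% of the total in the same order. The db/db male was the highest library on both scales, and the other 4 lay close together. The group means of the count share were 3.13 ± 0.171% (SD, n = 2) in WT and 3.46 ± 0.588% (SD, n = 3) in db/db, and the groups overlapped. Without the db/db male the difference between these means, 0.328 percentage points with all libraries, was -0.0092.

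Levels among single genes spread widely. The highest mean TPM over the 5 libraries belonged to Rpl41 (2533), the smallest ribosomal protein, Rps15 (2526), a 40S protein near the decoding site, and Rplp1 (2180), a P-stalk protein. Rpl41 and Rps15 do not differ beyond their spread: Rpl41 had 2489 ± 215 TPM in WT (SD, n = 2) and Rps15 had 2346 ± 245 TPM (SD, n = 2). The lowest were Rpl39l (0.544), known in mouse as the testis paralog of Rpl39, then Rps6 (19.2) and Rps15a (50.7), followed by Rps20 (97.5) and Rpl22 (108). For Rps15a, Rps20 and Rps6 the annotation bears on the level. Rps15a and Rps20 had a gene length of 5057 and 3364 bases implied by the deposited counts and FPKM, against a median of 620 bases for the ribosomal protein genes, and a longer assumed length lowers TPM.

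**Figure D1:**
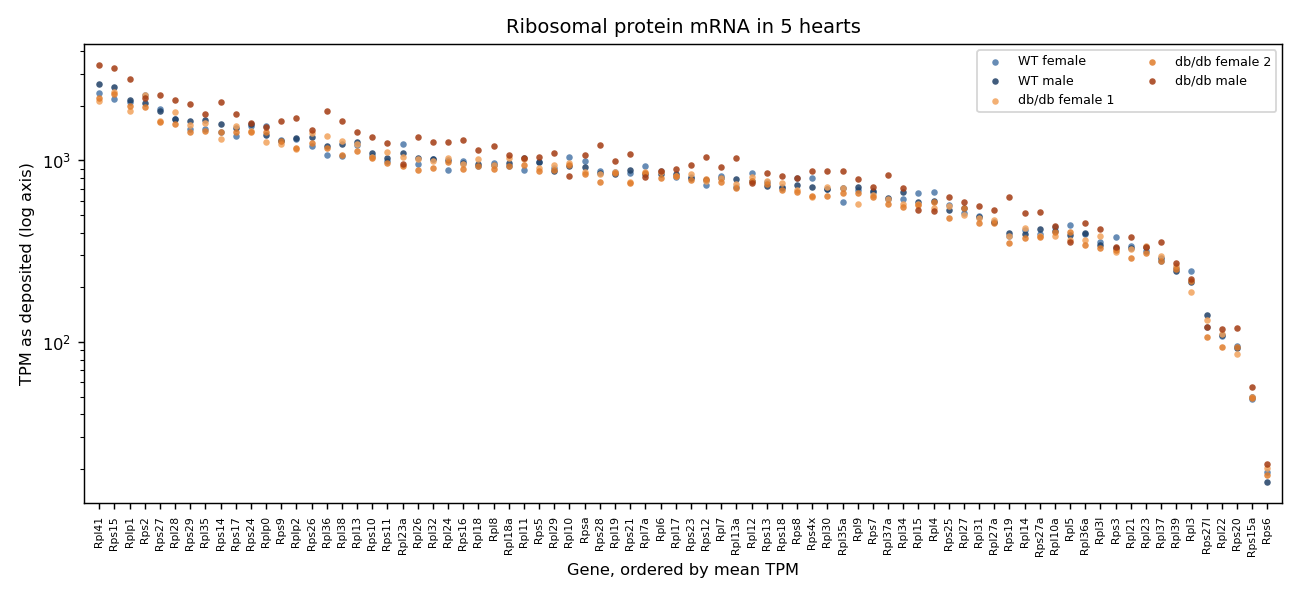
TPM as deposited (log axis) of 78 ribosomal protein genes ordered by mean TPM, with 1 point per library and Rpl39l left out. From Rpl41 (2533) the levels run down to Rps15a (50.7) and Rps6 (19.2), and the db/db male is the highest library for 65 of all 79 genes.

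Rps6 encodes the 40S protein that the S6 kinases phosphorylate. Its row held 15.8 and 16.6 CPM in the WT female and male, 21.0 and 18.9 CPM in the db/db females and 26.3 CPM in the db/db male. A second row, LOC105244208 (chromosome 2, 75191038 to 75191850), is described in the table as 40S ribosomal protein S6 and held 4724 to 5526 counts and a mean of 981 TPM. Counts in both rows were fractional, and their sums were whole: 5109, 4876, 5656, 5719 and 5215 counts. Together the 2 rows had a mean of 1001 TPM, and the level of the Rps6 row alone is therefore uncertain.

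A similar split was seen for Rpl23, a 60S protein. LOC100044627 and LOC100862455, both described as 60S ribosomal protein L23, held identical counts in 4 libraries, 846.51 and 955.88 in the WT female and male and 1100.13 and 934.88 in the db/db females. In the db/db male they held 2442.8 and 178.88. The 3 rows summed to 3694, 4144, 4757, 4277 and 4909 counts. Fold changes of these 2 unnamed rows depend on how reads were divided between them and are not given.

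The annotated starts show the TOP feature in part of the set. RefSeq promoter entries of build GRCm38.p6 (250 bases before to 50 after the start) were matched for 59 of the 79 genes, with 71 entries. The run sought was a C at the start followed by at least 4 bases that are each C or T. It was read only on the strand that has the sequence of the transcript. Such a run was present in 13 of the 71 entries (18.3%) and in 2.51% of all 32851 entries. The 13 genes were Rpl14, Rpl15, Rpl28, Rpl35, Rpl35a, Rpl38, Rplp2, Rps6, Rps10, Rps15a, Rps18, Rps21 and Rps27. When the run could begin anywhere from 10 bases before to 15 after the start, 60.6% of the entries of ribosomal protein genes and 35.8% of all entries held one. Starts of 6 genes that open with such a run are printed from 30 bases before to 20 bases into the transcript, run in capitals. The muscle paralog Rpl3l is printed beside them as 1 of the 46 matched genes, of 59, without a run at the start. In the wider window the printed Rpl3l entry did hold a run.
Rps6, chr4:86857348-86857397, minus strand: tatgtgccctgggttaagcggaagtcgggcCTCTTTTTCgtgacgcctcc
Rps15a, chr7:118116128-118116177, minus strand: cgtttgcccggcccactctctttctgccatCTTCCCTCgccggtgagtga
Rps27, chr3:90213629-90213678, minus strand: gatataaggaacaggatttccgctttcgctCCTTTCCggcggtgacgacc
Rpl15, chr14:18270967-18271016, minus strand: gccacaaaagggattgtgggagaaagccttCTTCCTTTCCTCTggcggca
Rpl35, chr2:39005112-39005161, minus strand: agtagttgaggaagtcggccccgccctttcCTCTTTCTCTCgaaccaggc
Rpl38, chr11:114668550-114668599, plus strand: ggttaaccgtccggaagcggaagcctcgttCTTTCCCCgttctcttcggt
Rpl3l, chr17:24727796-24727845, plus strand: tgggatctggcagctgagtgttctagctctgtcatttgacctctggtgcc
The 13 genes with the run at the start had a median log2 fold change of 0.38 for db/db against WT, and the tested genes with an entry but no such run (45) had 0.33. The ranges were 0.11 to 0.53 and 0.10 to 0.52, so the groups overlapped almost fully. With the offset for gene length described below, the medians were 0.061 with the run and 0.077 without it. The split follows the annotated start positions and does not separate genes with the motif from genes without it. In the wider window 40 of the 59 matched genes held a run.

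In the comparison of db/db with WT, which asks how the diabetic heart differs, no ribosomal protein gene passed the test (edgeR quasi-likelihood test, Benjamini-Hochberg adjusted over 12540 genes, threshold 0.05). Of all tested genes, 0.67% were called higher in db/db. All 78 log2 fold changes were nonetheless positive, with a median of 0.35 against -0.0072 for all tested genes, and the adjusted p ran from 0.338 to 0.921. Unadjusted p was under 0.05 for 10 of the 78 genes in edgeR, where this held for 12.9% of all tested genes, a share close to that of the 78. DESeq2 called 0 of them and gave 23 an unadjusted p under 0.05, against 10.4% of all tested genes. In the authors' deposited table, all 78 log2 fold changes were also positive (median 0.36), and the lowest q was 0.185.

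The values by library were alike from gene to gene. On the CPM scale all 78 genes were highest in the db/db male, and 75 were lowest in the WT female. On the TPM scale, 65 of the 79 genes were highest in the db/db male and 11 in the WT female. In 24 of the 78 genes every db/db library lay above both WT libraries, which held for 15.1% of all tested genes and for 32.8% of the 985 other genes in the shortest 10% by length. The median deviation from a gene's own mean (log2 CPM) was -0.33 in the WT female, -0.066 in the WT male, -0.0035 and -0.086 in db/db females 1 and 2, and 0.49 in the db/db male. The first and last of these libraries thus stood apart, and the other 3 did not separate by genotype. The median log2 fold change was 0.23 when the WT female was left out and 0.13 when the db/db male was. With neither library it was 0.018, and 48 of 78 values were positive. That fit set the WT male against the 2 db/db females, so genotype and sex cannot be told apart in it. The libraries left out held the lowest and highest values of these genes, so leaving them out lowers the difference in itself.

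**Figure D2:**
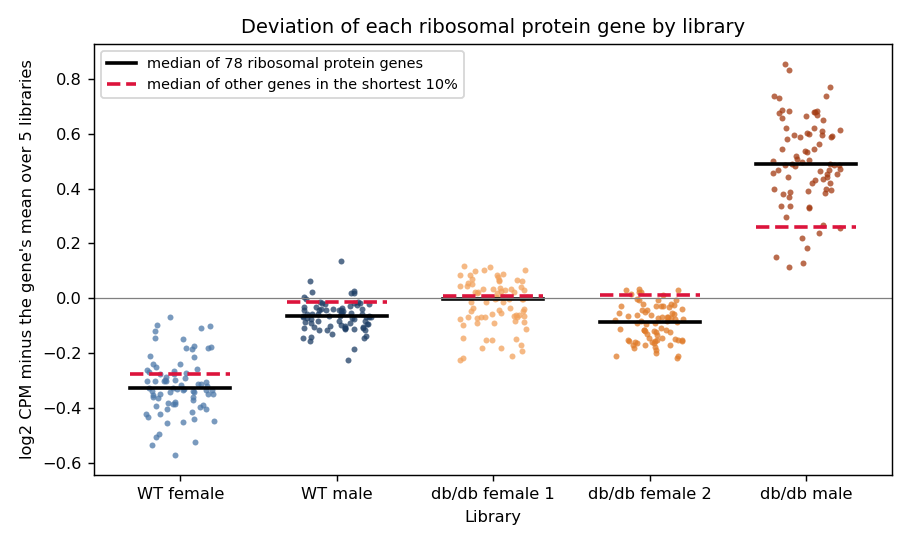
Deviation of log2 CPM from each gene's mean over the 5 libraries, 1 point per ribosomal protein gene, with the median of the 78 genes (black) and of the other genes in the shortest 10% by length (dashed). The WT female sits low (median -0.33) and the db/db male high (0.49), and the dashed lines move the same way to -0.28 and 0.26.

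The 40S genes had a median log2 fold change of 0.39 (31 of 31 positive, range 0.15 to 0.52). Rps19, which is mutated in Diamond-Blackfan anaemia in humans, held 150 and 187 CPM in the WT libraries, 187 and 174 CPM in the db/db females and 365 CPM in the db/db male. Only the db/db male lay above both WT libraries, and the log2 fold change of 0.52 (SE 0.30, edgeR adjusted p = 0.500) was not past the threshold. Rpsa, a 40S protein also known as the laminin receptor precursor (chromosome 9, 120127766 to 120132369), held 1105 and 1227 CPM in WT, 1206 and 1174 CPM in the db/db females and 1815 CPM in the db/db male. Its groups overlapped, with a log2 fold change of 0.26 (SE 0.20, edgeR adjusted p = 0.609).

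Rps4x, encoded on the X chromosome, had 419 and 441 CPM in the WT female and male, 410 and 418 CPM in the db/db females and 687 CPM in the db/db male. The db/db females lay below the WT female while the db/db male was highest, and the log2 fold change was 0.23 (SE 0.22, edgeR adjusted p = 0.687). The Rps6 row had its 3 db/db libraries above both WT libraries, with a log2 fold change of 0.44 (SE 0.18, edgeR adjusted p = 0.346). This value depends on how reads were divided between that row and LOC105244208. Together the 2 rows had 1074 and 965 TPM in the WT female and male. They had 994 and 971 TPM in the db/db females and 1000 TPM in the db/db male, so the groups overlapped. With rows of the same protein name summed, the genotype test again called 0 of the 78 genes.

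Rps27a encodes a fusion of ubiquitin with a 40S protein. It held 159 and 203 CPM in WT, 194 and 191 CPM in the db/db females and 318 CPM in the db/db male, with a log2 fold change of 0.37 (SE 0.23, edgeR adjusted p = 0.509). Rps27 held 314 and 360 CPM in WT, 334 and 328 CPM in the db/db females and 568 CPM in the db/db male. Its log2 fold change was 0.28 (SE 0.23, edgeR adjusted p = 0.630), and in both genes the db/db male alone lay above both WT libraries.

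The 60S genes had a median log2 fold change of 0.34 (47 of 47 positive, range 0.048 to 0.68). Rpl36 (chromosome 17, 56613395 to 56614246) had the largest value, 0.68 (SE 0.27, 1.60-fold). It held 218 and 285 CPM in the WT female and male, 341 and 294 CPM in the db/db females and 578 CPM in the db/db male, so all db/db libraries lay above both WT libraries. Its edgeR adjusted p of 0.338 missed the threshold. The log2 fold change of Rpl36 was 0.33 without the db/db male and 0.27 with an offset for gene length, described below, where Rps15a had the largest value (0.46). Rpl38, which in mouse embryos is known for its part in translating Hox messengers, had 179 and 245 CPM in WT, 270 and 224 CPM in the db/db females and 427 CPM in the db/db male. The db/db female 2 lay between the WT libraries, and the log2 fold change was 0.53 (SE 0.26, edgeR adjusted p = 0.412).

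The smallest fold changes were also found in the 60S subunit. Rpl23a, a protein at the exit of the peptide tunnel that contacts the signal recognition particle, held 366 and 388 CPM in WT, 389 and 345 CPM in the db/db females and 435 CPM in the db/db male. Its groups overlapped (log2 fold change 0.048, SE 0.15, edgeR adjusted p = 0.921). Rpl4, which lines the tunnel, had 561 and 596 CPM in WT and 576, 616 and 669 CPM in db/db, and a log2 fold change of 0.10 (SE 0.15, edgeR adjusted p = 0.811). Rpl15 had 339 and 355 CPM in WT and 365, 362 and 398 CPM in db/db, with a log2 fold change of 0.11 (SE 0.14, edgeR adjusted p = 0.781). On the TPM scale the order of group means was the opposite for all 3: Rpl23a had 1163 ± 90.5 TPM in WT (SD, n = 2) and 980 ± 61.6 TPM in db/db (SD, n = 3), and Rpl4 had 632 ± 52.4 TPM and 554 ± 30.8 TPM.

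The P stalk of the 60S subunit recruits the elongation factors, with Rplp0 as its base and dimers of Rplp1 and Rplp2 attached. Rplp0 (chromosome 5, 115559467 to 115563729) held 1244 and 1315 CPM in WT, 1268 and 1428 CPM in the db/db females and 1851 CPM in the db/db male. Rplp1 held 504 and 610 CPM in WT, 556 and 595 CPM in the db/db females and 1020 CPM in the db/db male. Rplp2 held 296 and 354 CPM in WT, 322 and 328 CPM in the db/db females and 584 CPM in the db/db male. In all 3 genes the db/db male was the highest library and the groups overlapped, with log2 fold changes of 0.24, 0.38 and 0.34 and edgeR adjusted p of 0.594, 0.534 and 0.587. Per length, Rplp1 was the most abundant of the 3 in every library and Rplp2 the least in 4 of them, and the exception was the db/db male, with 1709 TPM for Rplp2 and 1529 TPM for Rplp0.

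The summed TPM of the 40S genes was 0.735 and 0.737 of that of the 60S genes in the WT female and male, 0.732 and 0.731 in the db/db females and 0.758 in the db/db male. The group means were 0.736 ± 0.0013 (SD, n = 2) and 0.741 ± 0.015 (SD, n = 3), and they overlapped.

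Ribosomal protein genes are short, and short genes in general deviated by library. Their median implied length was 620 bases (258 to 5057) against 2769 bases for all tested genes, 64 of the 78 were under 1000 bases, and 65 fell into the shortest 10% of the 10494 genes with a mean log2 CPM over 2. The other 985 genes of that class deviated by -0.28 (WT female), -0.013 in the WT male, 0.0097 and 0.012 in the db/db females and 0.26 in the db/db male. These values ran in the same order of lowest and highest library as those of the ribosomal protein genes. Their median log2 fold change for db/db against WT was 0.23, 82.2% of them were positive, and the longest 10% of genes had a median of -0.13.

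**Figure D3:**
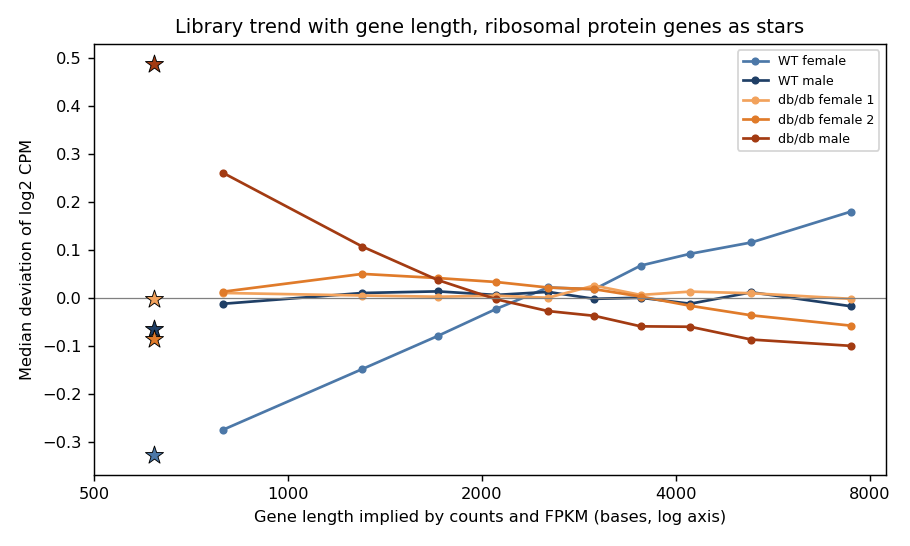
Median deviation of log2 CPM in 10 groups of other genes by implied length (lines, log axis), with the median of the 78 ribosomal protein genes as stars at their median length of 620 bases. The lines of the WT female and of the male with the db/db genotype cross, from -0.28 and 0.26 in the shortest 10%, and the stars of both lie beyond them at -0.33 and 0.49.

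When each library's trend with length was fitted (loess) and entered as an offset, the median log2 fold change of the 78 genes was 0.08 against -0.0070 for all genes, 56 were positive and 0 were called. The 78 genes were themselves among those used to fit the trend, so the trend and the offset are not independent of them. The fitted trend gave the ribosomal protein genes a median deviation of -0.31 (WT female) and 0.31 (db/db male), beside the measured -0.33 and 0.49. Genes of up to 500 bases (28) went from a median of 0.39 to 0.031, those of 500 to 1000 bases (36) from 0.33 to 0.083, and those over 1000 bases (14) from 0.29 to 0.21. Across the 78 genes, which share the libraries and the length estimate, log2 fold change and log2 length had r = -0.32 and rho = -0.37 without the offset, and r = 0.60 and rho = 0.48 with it. With the lengths of principal GENCODE transcripts instead, an alternative chosen after seeing the data, the median was 0.12 and 65 of 78 were positive.

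**Figure D4:**
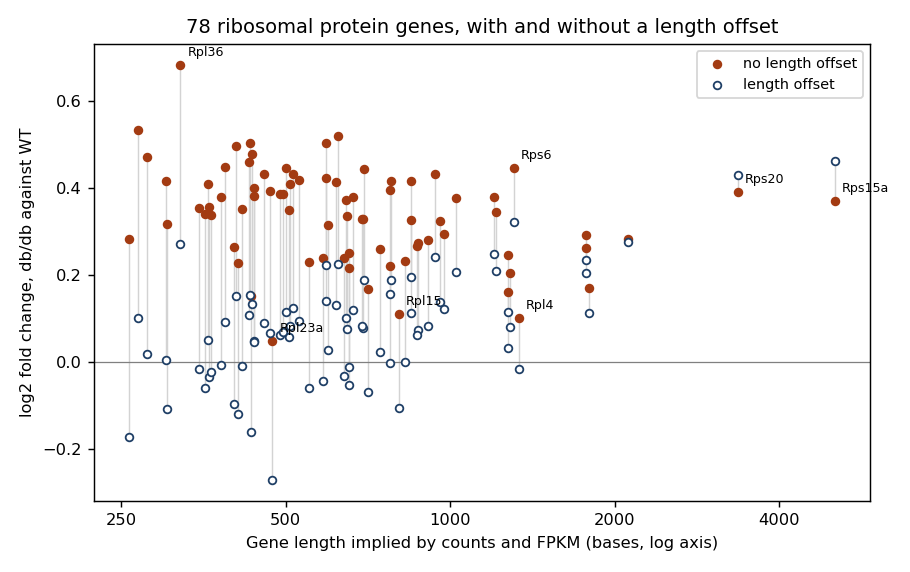
Log2 fold change of db/db against WT for each of 78 ribosomal protein genes by implied length (log axis), without (filled) and with (open) the length offset. All filled points are above 0, with a median of 0.35, while the open points lie around 0.08 and rise with length.

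Sex and genotype were unevenly mixed, and the model decided the count of called genes. With sex as a covariate, 37 of the 78 genes were called, all higher in db/db, where 4.62% of all tested genes were called higher (edgeR). In that model 34 of the 65 ribosomal protein genes in the shortest 10% (52.3%) were called, and 20.2% of the other genes there. Rpl36 had a log2 fold change of 0.74 (edgeR adjusted p = 0.0050) and Rpl38 of 0.61 (edgeR adjusted p = 0.011), while Rpl3l had 0.38 (edgeR adjusted p = 0.062) and was not called. Among females alone, 10 were called higher against 5% of all tested genes, with the lone WT female assumed to vary like the db/db females and the WT female being the library with the lowest values.

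With the length offset and sex together, 2 of the 78 genes were called higher, a share close to the 2.26% of all tested genes. The 2 genes were Rps15a and Rps20, both 40S proteins, named because they were the only calls among the 78 in that model. Rps15a held 154 and 188 CPM in the WT female and male, 198 and 195 CPM in the db/db females and 271 CPM in the db/db male, and its log2 fold change was 0.53 (SE 0.10, edgeR adjusted p = 0.012). Rps20 held 201 and 235 CPM in WT and 228, 247 and 381 CPM in db/db, with 0.48 (SE 0.12, edgeR adjusted p = 0.045). Their log2 fold changes without offset or sex, 0.37 and 0.39, lay near the median of all 78 genes, and they had the longest implied lengths of the set, so the offset did not lower them. With GENCODE lengths and sex, 3 were called, Rps15a, Rps20 and Rpl18, where 2.69% of all tested genes were. Rpl18 has 592 bases by counts and FPKM and 2989 bases in its GENCODE transcript.

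Between the sexes, in a model with genotype, 21 of the 78 genes were called, all higher in males, where 1.23% of all tested genes were called higher (edgeR). Their median log2 fold change was 0.42, and all 78 were positive. In the shortest 10%, 32.3% of the ribosomal protein genes and 8.43% of the other genes were called. Rps15 had the smallest p: it held 596 CPM in the WT female and 811 and 789 CPM in the db/db females, against 817 CPM in the WT male and 1350 CPM in the db/db male. Both males lay above all 3 females, the WT male by 817 CPM against 811 CPM in db/db female 1. The difference between the sexes in the model with genotype was 0.63 on the log2 scale (SE 0.11, edgeR adjusted p = 0.019).

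The count of genes called between the sexes rested on single libraries. It was 62 without the WT female and 59 without the WT male, where 4.32% and 4.09% of all tested genes were called higher. It was 4 and 0 without db/db females 1 and 2, with 0.548% and 0.161% of all tested genes, and 0 without the db/db male, with 0.817%. The fits without the WT female and without the WT male are not separate results. In each, the genotype term took up the lone WT library. Sex was then read from the db/db male against the 2 db/db females, with median log2 fold changes of 0.546 and 0.548. Without the db/db male, sex was read from the WT male against the WT female, with a median of 0.251. With the length offset and all libraries 0 were called, where 0.183% of all tested genes were. In that model 13 of the 78 genes and 11.3% of all tested genes had an unadjusted p under 0.05. Without the offset DESeq2 called 56, where it called 2.09% of all tested genes higher. The median with the offset was 0.12, and 68 of 78 values were positive. Of the 985 other short genes, 51.9% were positive in that model, and of the 65 short ribosomal protein genes 84.6%.

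Rpl3l, the muscle paralog of Rpl3, was the more abundant of the pair in every library. Rpl3 (chromosome 15, 80075649 to 80083406), a protein close to the peptidyl transferase centre, had 248 and 213 TPM in the WT female and male, 189 and 217 TPM in the db/db females and 223 TPM in the db/db male. Rpl3l (chromosome 17, 24727829 to 24736149) had 355 and 342 TPM in WT, 382 and 329 TPM in the db/db females and 421 TPM in the db/db male. Rpl3l thus made up 58.9% and 61.6% of the pair in WT and 66.9%, 60.3% and 65.4% in db/db, and the db/db female 2 lay between the WT libraries. The means were 60.3 ± 1.85% (SD, n = 2) and 64.2 ± 3.46% (SD, n = 3), a difference of 3.94 percentage points (exact two-sided permutation p = 0.3, where 10 arrangements allow no p below 0.1). In the genotype test on counts, Rpl3l had a log2 fold change of 0.34 (SE 0.16, edgeR adjusted p = 0.402) and Rpl3 of 0.16 (SE 0.17, edgeR adjusted p = 0.720). The lengths implied for Rpl3l varied by 14.5% between libraries, which enters the TPM shares. With the same length for a gene in every library, Rpl3l made up 60.1% and 61.4% of the pair in the WT female and male. It then made up 66.9% and 61.2% in db/db females 1 and 2 and 63.1% in the db/db male.

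**Figure D5:**
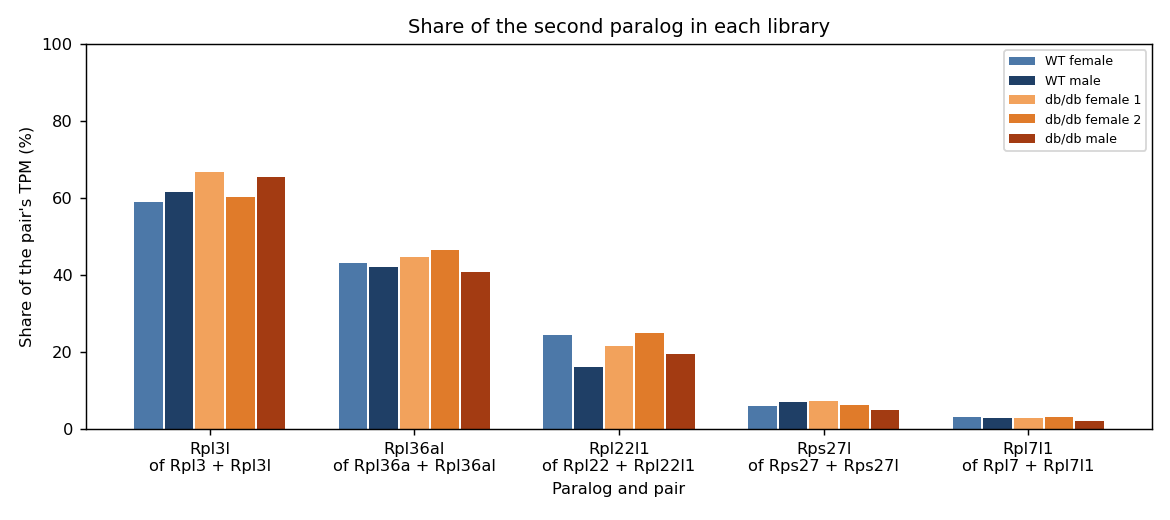
Share of the second paralog in the summed TPM of 5 pairs, 1 bar per library. Rpl3l takes 58.9% to 66.9% of its pair, Rpl36al 40.9% to 46.5%, Rpl22l1 16.1% to 24.9%, Rps27l 5.02% to 7.40% and Rpl7l1 2.10% to 3.15%.

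The other pairs had 1 dominant member, except Rpl36a and Rpl36al. Rpl36al took 42.6 ± 0.658% (SD, n = 2) of that pair in WT and 44.0 ± 2.84% (SD, n = 3) in db/db. These proteins are nearly identical, and how reads that fit both genes were counted is not given, so the split is uncertain, although their counts were whole in all 5 libraries. Rps27l, a paralog known to respond to p53, took 6.46 ± 0.752% and 6.21 ± 1.19% of its pair, and Rpl22l1 took 16.1% to 24.9% over the 5 libraries. Over the 6 pairs measured, the exact two-sided permutation p for the share ran from 0.3 to 1. Rpl39, a small protein of the peptide tunnel, held 56.1 and 63.9 CPM in WT and 71.1, 68.8 and 90.2 CPM in db/db, so its groups did not overlap (log2 fold change 0.35, SE 0.16, edgeR adjusted p = 0.381), while Rpl39l had 1 and 4 counts in WT and 5, 0 and 4 counts in db/db. The library without a count, db/db female 2, allows up to 3 counts or 0.289 CPM, and no difference was detectable at this depth.

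Further lists describe the surrounding machinery. Of 10 ribosomal proteins outside the naming rule, 7 were tested and 0 were called, with a median log2 fold change of 0.33. Among them Fau, a ubiquitin-like fusion with a 40S protein, had 0.53 (SE 0.23, edgeR adjusted p = 0.360) and Rack1, a signalling scaffold on the 40S subunit, had 0.20 (SE 0.16, edgeR adjusted p = 0.621). Of 20 elongation factors and other genes with TOP messengers, 0 were called (edgeR) and the median was 0.12, with 16 values positive. Of 37 ribosome biogenesis genes, 0 were called (edgeR) and the median was 0.045, with 21 positive. At an unadjusted p under 0.05 there was 1 gene in each of these 3 lists, beside 12.9% of all tested genes. With sex as a covariate, 2 of the 7 ribosomal proteins were called higher (edgeR), Fau among them, as was Eif3k of the elongation list, with a log2 fold change of 0.40, and Tsr1 of the biogenesis list was called lower, at -0.84. In that model 4.62% of all tested genes were called higher and 2.02% lower. With the length offset 0 genes of these 3 lists were called (edgeR), the medians were 0.076, 0.065 and -0.0065, and 1 gene, of the biogenesis list, had an unadjusted p under 0.05.

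Among 21 genes of the mTORC1 pathway and its control of TOP messengers, 1 was called higher and 0 lower, with a median of -0.059. In that model 0.67% of all tested genes were called higher (edgeR). The gene called was Ddit4 (Redd1), an inhibitor of mTORC1 that responds to stress and glucocorticoids. It held 16.1 and 15.5 CPM in the WT libraries, 62.6 and 57.4 CPM in the db/db females and 43.2 CPM in the db/db male. All db/db libraries lay above both WT libraries, and the db/db male was the lowest of them. The mean rose from 15.8 CPM to 54.4 CPM (log2 fold change 1.79, SE 0.19, edgeR adjusted p = 9.4e-04). With the length offset its log2 fold change was 1.70. Eef2k, the kinase that inhibits elongation factor 2, had 27.3 CPM in WT and 44.8 CPM in db/db, with a log2 fold change of 0.71 (SE 0.16, edgeR adjusted p = 0.069), and Castor1, an arginine sensor upstream of mTORC1, had 1.02 (SE 0.29, edgeR adjusted p = 0.161). Both missed the threshold in this model. Eef2k was called higher with the length offset (log2 fold change 0.83, edgeR adjusted p = 0.025), where 0.797% of all tested genes were. With sex as a covariate, and with sex and the offset together, Ddit4, Eef2k and Castor1 were all called higher. In these 2 models 4.62% and 2.26% of all tested genes were called higher. The median of the 21 genes was 0.017 with the length offset.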

How the data were processed

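Total RNA of mouse hearts was enriched with oligo(dT) for the 5 libraries, per the labels' protocols. HISAT, Bowtie2, DESeq2 and build GRCm38.p6 come from the submitters' processing notes, without role or version; no source used here names the counting program. The authors deposited an estimated count (expected count), an FPKM and a TPM per gene and library, per the file headers, the last 2 scaled to gene length. Their own log2 fold change, p-value and q-value for db/db against WT were also deposited. Of the deposited counts, 91.4% were exactly whole, with no tolerance, and all were rounded. After 2 lines without a gene were dropped, 17228 genes remained; 23 symbols turned into dates were restored by gene ID, and 17120 IDs were in RefSeq GRCm38.p6. A count of 0 allows up to 3 counts, or 0.289 to 0.359 CPM by library, which covers counting error only.

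Counts passing the edgeR filter (12540 genes) were TMM-scaled and tested with the robust quasi-likelihood test of edgeR 4.0.16 in R 4.3.3, tested first on simulated data. Standard errors (SE) were derived from the F statistics. Genotype was fitted alone, and sex together with genotype. Paralog shares used deposited TPM and an exact permutation test. The length of a gene was taken from the ratio of its count, as a share of the library total, to its FPKM, as the median over libraries with at least 10 counts, and loess (span 0.3), fitted where the mean log2 CPM was over 2, gave the offset. Deviations used log2 CPM with a prior count of 2. Alternatives were DESeq2 1.42.0, limma 3.58.1 (voom, and FPKM on a log2 scale with a pseudocount of 1 or 0.1, keeping genes over 1 FPKM in at least 2 libraries), RLE scaling, library totals, no filter, sex, title number or females alone, the length offset, and leaving out libraries. Others were chosen after seeing the data: offsets from principal GENCODE M21 transcripts (98.9% of tested genes) and summed rows of 1 protein name.

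The members, lists and tests were chosen with earlier results of these data known. Named were the 3 largest and 3 smallest fold changes, 12 genes by role, the smallest p between the sexes in each direction (no gene was lower in males), the 3 highest and 3 lowest levels, and paralog pairs; Rpl10l and Rps4l had no row to use. Rps15a, Rps20, Rpl18, Rpl22, Rpl23, Fau, Rack1, Ddit4, Eef2k, Castor1, Eif3k, Tsr1 and the genes with a printed start were named after their values were seen. Promoter sequences come from RefSeq. Of the ribosomal protein genes matched, 20 had no promoter entry to use.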

Additional observations from a re-analysis of the deposited data

Results flagged for a closer look

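The share of TPM in ribosomal protein genes moved in opposite directions by genotype in the 2 sexes: it was 8.16% in the db/db male against 6.89% in the WT male, and 6.70% and 6.40% in the db/db females against 6.77% in the WT female. On the count scale the share was higher in db/db in both sexes, at 3.19% and 3.05% against 3.01% in females and 4.13% against 3.25% in males. On the TPM scale the male difference exceeded the mean female difference by 1.50 percentage points. The ratio of summed 40S to 60S TPM did the same, with a gap of 0.024 between the differences in males and females. Rps4x log2 CPM was likewise higher in the db/db male and lower in both db/db females than in the WT library of their sex, with a gap of 0.66. In females alone the log2 fold change of Rps4x was -0.015, so the female difference was small. With 1 library for each genotype in males and 1 WT library in females, none of these differences between the sexes was tested.

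Signal of ribosomal proteins also appeared in rows that the symbol rule does not take. LOC105244208, described as S6, had a mean of 981 TPM over the 5 libraries. LOC100044627 and LOC100862455, both described as L23, had means of 457 and 290 TPM.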

How the results depend on the processing

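Whether any gene was called for db/db against WT depended on sex in the model: 0 in the chosen model and in every other setting except 37 when sex was a covariate, 10 in females alone, 2 with the length offset and sex, and 3 with GENCODE lengths and sex. Their median log2 fold change of 0.35 stayed positive in every setting and ran from 0.13 to 0.50 when 1 library was left out. It was 0.018 without both outer libraries (WT female, db/db male). These held the lowest and highest values of the genes, so leaving them out lowers the difference in itself. The WT male then stood against db/db females alone, so genotype and sex cannot be told apart there. Between males and females, 21 genes were called in the chosen model, 56 with DESeq2, 0 with library totals and 0 with either length offset; leaving out 1 library gave 0 to 62. The median was 0.42, and 0.12 with the length offset. Leaving out either WT library gave the same comparison of the sexes, the db/db male against the 2 db/db females. The numbers in the sample titles are shared without a stated pairing. Deviations of same-numbered libraries had r = 0.10 (WT female and db/db female 1), -0.18 (WT female and db/db male) and -0.13 (WT male and db/db female 2). Each value had the opposite sign with the other WT library, so the signs cannot bear on a pairing. With the title numbers as a replicate block, 0 genes were called and the median was 0.34. The difference in count share ran from -0.0092 to 0.53 percentage points when 1 library was left out, and the gap in Rpl3l share from 2.59 to 5.89. Library totals moved the median of all genes to -0.19, and the ribosomal protein median there was 0.16. Of 378 log2 fold changes of 18 named genes in other settings, 323 stayed positive, 55 changed sign, none of them called, and 6 passed the threshold: Rpl36, Rpl38, Rps19 and Rps27a with the sex term, and Rpl36 and Rpl38 in females alone. The negative values were, in females alone, -0.015 (Rps4x); without both outer libraries, -0.051 (Rps19), -0.080 (Rpl23a), -0.0087 (Rpl3), -0.083 (Rplp1), -0.12 (Rplp2), -0.044 (Rpsa), -0.078 (Rps27a), -0.092 (Rps4x), -0.12 (Rps27) and -0.17 (Rps27l); with library totals, -0.074 (Rpl15), -0.084 (Rpl4), -0.14 (Rpl23a), -0.030 (Rpl3) and -0.027 (Rps27l); on log2 FPKM with either pseudocount, -0.048 (Rpl15), -0.085 (Rpl4), -0.14 (Rpl23a), -0.034 (Rpl3) and -0.024 (Rps27l); with the length offset, -0.11 (Rpl15), -0.017 (Rpl4), -0.27 (Rpl23a), -0.0063 (Rplp1), -0.060 (Rplp2), -0.00097 (Rps4x), -0.016 (Rpl39), -0.17 (Rps27) and -0.16 (Rps27l); with the offset and sex, -0.13 (Rpl15), -0.014 (Rpl4), -0.30 (Rpl23a), -0.046 (Rplp2), -0.041 (Rpl39), -0.17 (Rps27) and -0.17 (Rps27l); with GENCODE lengths, -0.0053 (Rpl4), -0.28 (Rpl23a), -0.16 (Rps27) and -0.17 (Rps27l); with GENCODE lengths and sex, -0.00079 (Rpl4), -0.31 (Rpl23a), -0.16 (Rps27) and -0.18 (Rps27l); without the db/db male, -0.040 (Rpl23a), -0.0021 (Rplp2), -0.057 (Rps4x) and -0.028 (Rps27); and without the WT female, -0.061 (Rps27l). When 1 library was left out, the highest values of these genes were 0.13 (Rpl23a), 0.49 (Rplp2), 0.36 (Rps4x), 0.42 (Rps27) and 0.40 (Rps27l). The causes were not tested. Depth limited Rpl39l, with 0 to 5 counts per library; every other gene had at least 100 counts in each.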
